A study of Mus musculus with 2 samples.

Results

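The genes described here encode the machinery with which the endoplasmic reticulum (ER) imports, modifies, folds and exports secreted proteins, measured in the livers of newborn mice. The members are 45 genes named for their known roles (subunits of the import, cleavage and glycosylation complexes, chaperones, disulfide isomerases and exit factors), with earlier results of these data known. All 45 matched a gene in the tables, out of 43346 genes. RNA was measured in 2 libraries of 1 group, named pup 1 (replicate 1) and pup 3 (replicate 2) after the animal whose liver was used. Both pups were of the B6NCrl strain at postnatal day 0, carried no transgene or treatment in the labels, and their sex was not collected. For each, 13 pg of liver RNA above 200 nt in length (1 cell-equivalent) was mixed with spike-in RNAs and amplified by a SmartSeq protocol. Since the labels name separate livers yet repeat a donor entry, any spread between pups may be animal or technical. With 1 group there is no contrast to test: levels are given for both pups, as mean ± SD (n = 2), and as ratios of pup 1 over pup 3 with no p-value.

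A secreted protein starts as a nascent chain whose signal sequence is bound by the signal recognition particle and handed to the Sec61 channel of the ER membrane. There the signal peptidase removes the signal, oligosaccharyl transferase attaches N-linked glycans, and chaperones and disulfide isomerases fold the chain before COPII vesicles carry it to the Golgi. Hepatocytes use this route for albumin, transferrin, clotting factors and lipoproteins, and they enlarge it through the unfolded protein response, a signalling pathway that raises chaperone genes when unfolded protein accumulates.

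Pup 1 had 56959836 expected counts in all and pup 3 had 35973980. A count of 0 allows up to 0.0547 CPM in pup 1 and 0.0862 CPM in pup 3 (reads relative to the endogenous total; 3 counts per library, counting error only). At 1 TPM (a level per transcript length, relative to all transcripts) or more, pup 1 had 5742 detected genes and pup 3 had 5491. The liver label was checked against markers of its cells: all 7 hepatocyte markers were detected in both pups, with 15.9% of TPM in pup 1 and 12.8% in pup 3, and so were all 7 erythroid markers, with 13.3% and 16.4%. Markers of other cells were also examined. Of 6 plasma cell markers, 5 were at 0 in both pups and Sdc1, which hepatocytes also express, stood at 184 and 17.4 TPM; of 7 pancreatic acinar markers, 6 were at 0 and Amy2a5 stood at 1.32 and 7.68 TPM. Summed markers were higher in pup 1 for mesenchymal cells (393 TPM, 226 in pup 3) and endothelium (286 and 170.0). They were higher in pup 3 for macrophages (667 in pup 1, 965 in pup 3), neutrophils (6322 and 9091) and megakaryocytes (677 and 1216). Single markers did not all follow these sums. Endothelial markers split 3 to 3, and of 7 neutrophil markers 4 were higher in pup 1. Of 7 markers each, 1 mesenchymal, 2 macrophage and 1 megakaryocyte marker also went against their sum. The macrophage marker C1qc went from 0 counts in pup 1 up to 196 TPM in pup 3. The part of these markers in the members' ratios was not tested.

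The 45 genes together held 0.533% of endogenous TPM in pup 1 and 0.618% in pup 3, or 0.575 ± 0.0598%. Their median level, with undetected members included, was 75.1 TPM in pup 1 against 62.2 TPM in pup 3. Over all genes detected in the same libraries, with undetected genes left out, the median was 34.0 and 39.3 TPM. Of the 45, 19 averaged 100 TPM or more, 23 averaged 10 to 100 TPM and 3 averaged under 10 TPM, and 19 were among the 1000 genes of highest mean TPM. The level was concentrated in a few folding factors. Hspa5, P4hb and Ppib alone held 28.4% of the members' TPM in pup 1 and 33.5% in pup 3. Against this machinery stood 36 secreted hepatocyte proteins, led by transferrin (Trf), fetuin-A (Ahsg) and apolipoprotein A-I (Apoa1), all detected in both pups and holding 27.1% of TPM in pup 1 and 23.0% in pup 3. For every 100 TPM of this cargo the libraries held 1.97 TPM of machinery in pup 1 and 2.69 TPM in pup 3. In tissue RNA, fewer cells of a type and less RNA per cell cannot be told apart, so these shares are averages over all cells of the liver.

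**Figure D1:**
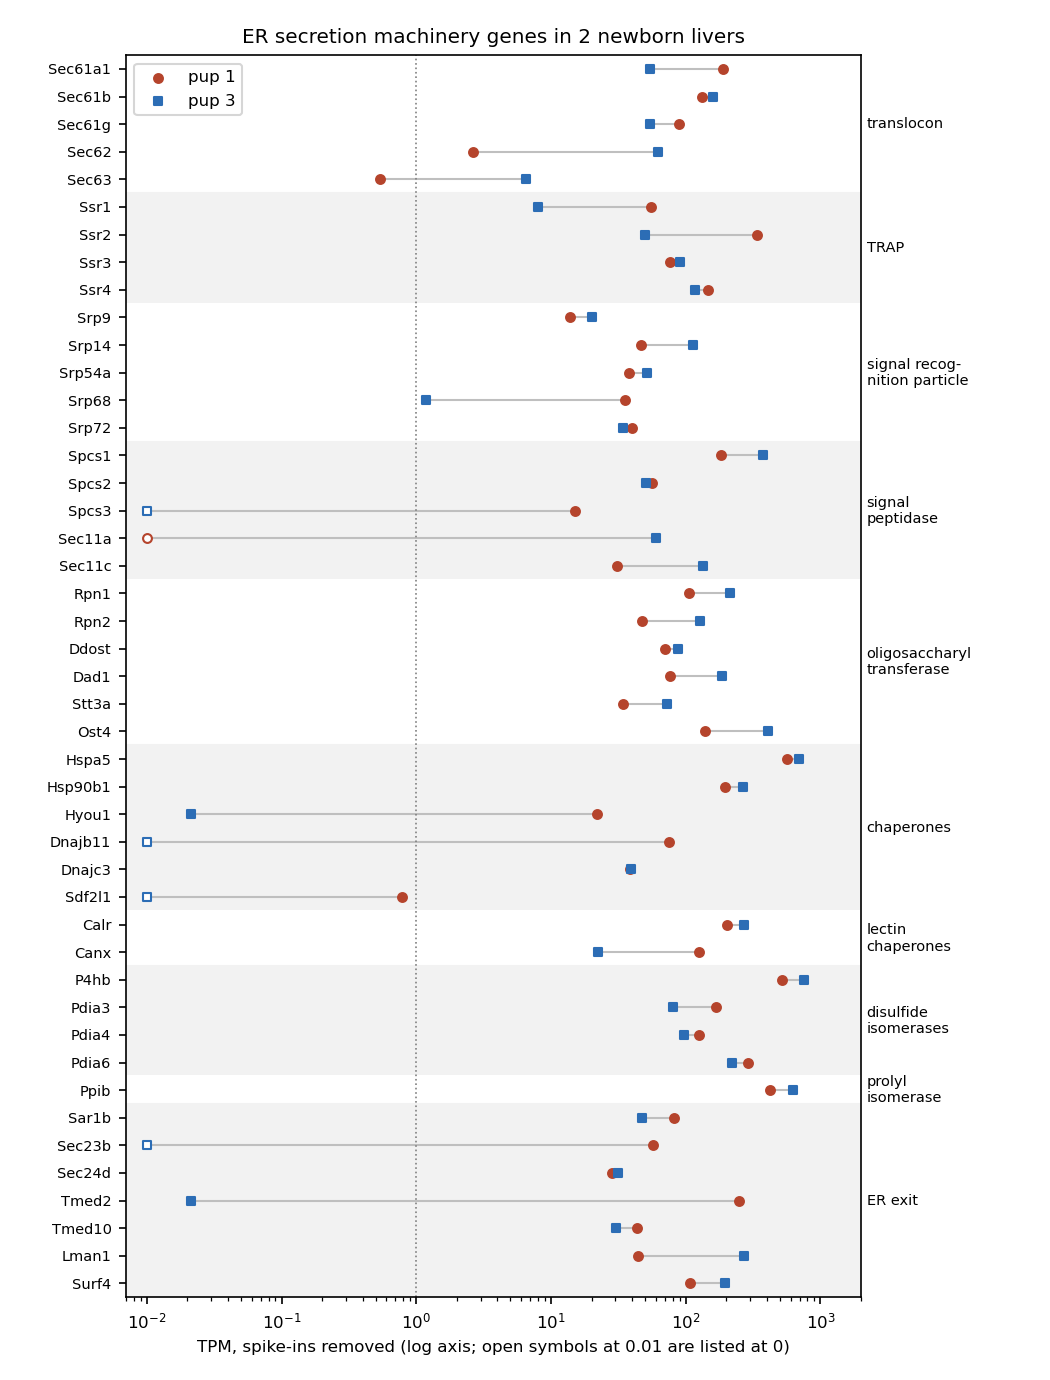
Level of each of the 45 genes in pup 1 (circles) and pup 3 (squares), in TPM on a log axis with a dotted line at 1 TPM, ordered by step of the pathway; each row is 1 gene and open symbols at the left edge mark a listed value of 0. Hspa5, P4hb and Ppib sit furthest to the right in both pups, and 7 genes have 1 symbol above and 1 symbol below the dotted line.

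Of the 45 genes, 37 were detected in both pups, 5 in pup 1 alone at this threshold (Spcs3, Hyou1, Dnajb11, Sec23b and Tmed2), 2 in pup 3 alone (Sec63 and Sec11a) and 1 in neither (Sdf2l1). Among all genes detected in either pup, 46.3% were detected in both. That background is made mostly of lower genes, so it was also read by level. At a mean of 30 to 100 TPM, 16 of 17 members were in both pups against 75.7% of all genes, and at 100 to 300 TPM 15 of 16 against 97.9%. At 10 to 30 TPM, 3 of 6 members were in both, against 29% of all genes. The members at a mean over 300 TPM were all in both pups, as were all other genes at that level.

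**Figure D2:**
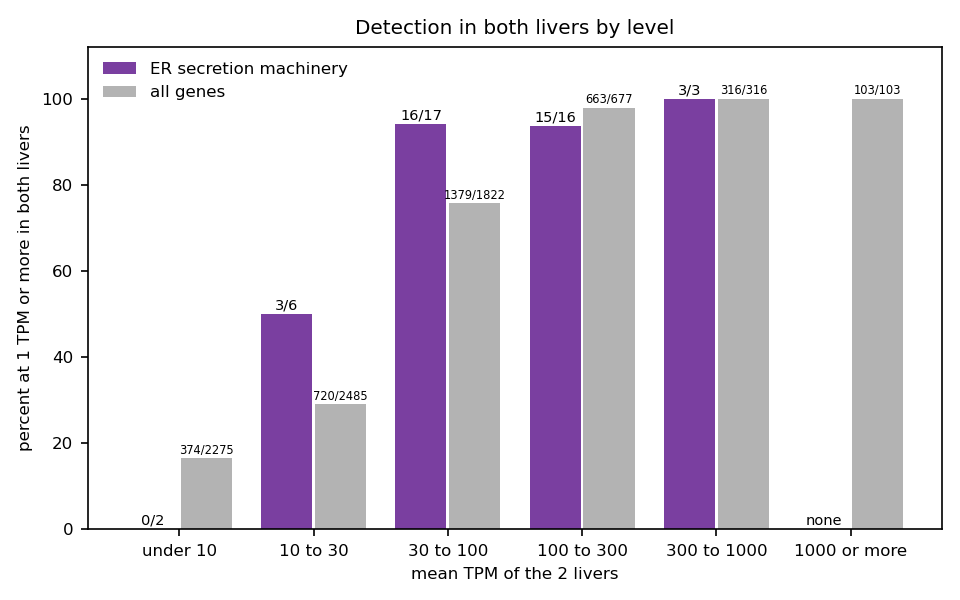
Share of genes (in percent) that reached 1 TPM in both livers, among those that did in either, by mean TPM; purple bars are the members and grey bars all genes, with the counts above each bar. Both sets go up with the level, and at 30 to 100 TPM the members stand at 16 of 17 beside 75.7% of all genes.

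On the log2(TPM + 1) scale the median ratio of pup 1 over pup 3 was -0.24 over the 45 members and 0.04 over the 8120 genes that averaged 10 or more expected counts. The sign of the members' median was not stable to scaling: with TMM factors it was 0.02, but these also moved the median of all genes to 0.26, and with spike-in totals the values were -0.44 for the members and -0.14 for all genes. The median is the value of Ssr3, and placing the genes listed at 0 at their bounds leaves it there. A difference of 2-fold or more was found for 22 members, against 67.6% of all genes. Of these 22, 11 were higher in pup 1, where the background was 34.5%, and 11 were higher in pup 3, where it was 33.1%. With TMM or DESeq2 factors the split was 12 higher in pup 1 and 8 higher in pup 3, and with spike-in totals it was 10 and 13. At the members' most common level, a mean of 30 to 100 TPM, 8 of 17 members were past 2-fold beside 57.6% of all genes, and at 100 to 300 TPM 8 of 16 beside 40.8%. At 10 to 30 TPM it was 4 of 6 beside 88.6%. In total 18 of the 45 lay within 1.5-fold between the pups. The members just inside the 2-fold limit and just past it were Rpn1 (log2 ratio -0.99), Spcs1 (-1.03), Pdia3 (1.05) and Stt3a (-1.06).

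**Figure D3:**
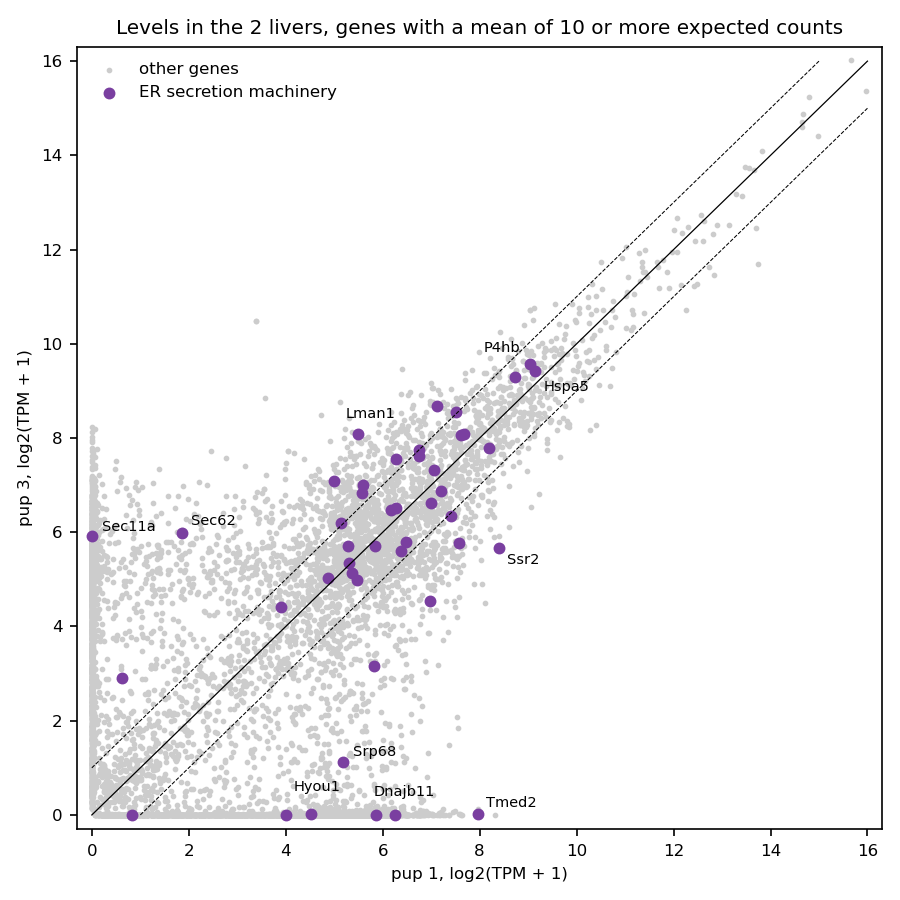
Level of each gene in pup 1 (horizontal) and pup 3 (vertical), both as log2(TPM + 1), for the 8120 genes with a mean of 10 or more expected counts; purple points are the members, grey points the other genes, the solid line marks equal levels and the dashed lines a 2-fold difference. Hspa5 and P4hb lie near the solid line, while Tmed2, Dnajb11 and Sec11a lie on or near an axis.

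The signal recognition particle, which pauses the ribosome and brings it to the ER, was present at low to middle levels in both pups. Its 5 measured subunits summed to 174 TPM in pup 1 against 221 TPM in pup 3, and all 5 were detected in both. With near-identical copies added, mainly Srp54c, the order turned, to 0.0306% of TPM in pup 1 and 0.0299% in pup 3. Srp14, which with Srp9 holds back elongation, had 46.9 TPM in pup 1 against 113 TPM in pup 3. Its partner Srp9 was lower in both pups, at 13.9 TPM in pup 1 against 20.3 TPM in pup 3. Srp54a, a GTPase subunit that binds the signal sequence, had 38.2 TPM in pup 1 against 51.6 TPM in pup 3, and its estimate rests on a division of reads. Srp54c is 99.5% identical to it over 3640 nt and was given 11776 expected counts in pup 1 against 2835 in pup 3, where Srp54a was given 2256 and 2091. Srp68 and Srp72, which bind each other in the particle, did not stand at the same levels. Srp68 had 35.2 TPM in pup 1 against 1.18 TPM in pup 3 (3496 and 76 expected counts). Srp72 had 40.0 TPM in pup 1 against 34.4 TPM in pup 3, so by TPM of gene totals the pair was near equal in pup 1 and far apart in pup 3. By CPM the pair differed in pup 1 too, at 63.8 for Srp68 and 24.6 for Srp72. The coding Srp72-201 held 0.90% of the Srp72 total there. The near equality of Srp72 between the pups holds per transcript length and not for reads, since its expected counts were 1346 and 3324 and its log2 ratio by CPM was -1.92. Srp19, the remaining protein subunit examined, was not among the members and had 70.0 TPM (2228 counts) in pup 1 and 0 counts in pup 3. Of the receptor that docks the particle, Srpr had 66.6 and 118 TPM, and Srprb had 0 counts in pup 1 and 32.4 TPM in pup 3.

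By gene totals the Sec61 channel was seen in both pups through all of its subunits. The coding transcript Sec61g-201, however, had 0% of the Sec61g total in pup 1 and 87.9% in pup 3. Sec61a1, the pore-forming subunit, had 190.2 TPM in pup 1 against 53.9 TPM in pup 3, a log2 ratio of 1.80. Sec61b, a small tail-anchored subunit, had 131 TPM in pup 1 against 159 TPM in pup 3. Sec61g, the other small subunit, had 88.5 TPM in pup 1 against 54.7 TPM in pup 3. The order of the subunits thus differed, with Sec61a1 the highest in pup 1 and Sec61b the highest in pup 3. The Sec61g values carry a limit of counting, because Gm10177, a transcribed processed pseudogene 99.1% identical over 424 nt, was given 3964 expected counts in pup 1 against 3393 in pup 3, more than Sec61g itself (1386 and 609). Sec62 and Sec63, which serve chains that enter after or apart from their synthesis, were the lowest of this group in pup 1. Sec62 had 2.64 TPM in pup 1 against 62.2 TPM in pup 3. Sec63, which recruits the chaperone BiP to the channel through its J domain, had 0.535 TPM in pup 1 against 6.48 TPM in pup 3. In pup 3 Sec62 thus stood above Sec61a1 and Sec61g by gene totals only. Of its total there, 91.6% was the retained-intron transcript Sec62-202, which is not annotated as coding. Sec63 in pup 1 was 100% another retained-intron transcript, Sec63-204. Sec62 and Sec63 were both lower in pup 1, by log2 ratios of -4.12 and -2.29. At 73 and 90 expected counts in that pup they rest on few reads.

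The TRAP complex, which sits beside the channel and assists the insertion of some signal sequences, leaned toward pup 1. Its median log2 ratio was 1.49, and 2 of 4 subunits were past 2-fold, both higher in pup 1, beside 34.5% of all genes. Its 4 subunits summed to 614 TPM in pup 1 against 266 TPM in pup 3. Ssr2 had 335 TPM in pup 1 against 49.97 TPM in pup 3 and Ssr1 had 55.5 and 7.95 TPM, log2 ratios of 2.72 and 2.66. Ssr3 had 76.8 TPM in pup 1 against 90.6 TPM in pup 3, and Ssr4 had 146 and 117 TPM. In pup 3 the 4 subunits thus ran from 7.95 to 117 TPM, although they assemble into 1 complex. With TMM or DESeq2 factors Ssr3 also turned to the pup 1 side, so that all 4 were then higher there, against 3 of 4 as scaled here. These factors moved the median of all genes toward pup 1 as well, to 0.26 and 0.25. Ssr1 had the longest effective length among the members, 9207 nt, so its 21338 expected counts in pup 1 give a modest TPM.

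The signal peptidase stood apart between the pups in its accessory and in its catalytic subunits. Its 5 subunits summed to 285 TPM in pup 1 against 620.0 TPM in pup 3. Spcs1 had 183 TPM in pup 1 against 375 TPM in pup 3, and Spcs2 had 56.2 and 51.0 TPM. Spcs3, which is essential for the enzyme in yeast, had 15 TPM from 2109 expected counts in pup 1 and 0 counts in pup 3, at least 446-fold higher in pup 1 by CPM against a floor of 3 counts in pup 3. The catalytic subunits Sec11a and Sec11c are alternatives to each other. Sec11a had 0 counts in pup 1 and 59.9 TPM (1375 counts) in pup 3, at least 722-fold lower in pup 1 by CPM. The bounds for Spcs3 and Sec11a are on reads and cover counting error only. Sec11c had 30.8 TPM in pup 1 against 134 TPM in pup 3. By gene totals each pup therefore had at least 1 catalytic subunit at 1 TPM or more, and in pup 1 that was Sec11c alone. These totals include transcripts not annotated as coding. The coding Sec11c-201 held 2.26% of Sec11c in pup 1, and the coding Sec11a-201 held 25.3% of Sec11a in pup 3. The related membrane protease H13 (signal peptide peptidase), which cleaves the released signals, had 8 expected counts in pup 1 against 4496 in pup 3.

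Oligosaccharyl transferase was the only one of the groups of 2 or more members in which every member was higher in pup 3. Its 6 subunits were all detected in both pups and summed to 474 TPM in pup 1 against 1095 TPM in pup 3, with a median log2 ratio of -1.17. Ost4, a very small subunit, had 139 TPM in pup 1 against 409 TPM in pup 3. Rpn1 had 106 TPM in pup 1 against 213 TPM in pup 3, and Rpn2 had 47.3 and 127 TPM. These ribophorins are structural subunits beside the channel. Of the Rpn2 total, 74.0% in pup 1 and 49.6% in pup 3 was Rpn2-206, a processed transcript not annotated as coding. Dad1, named for the cell death that follows its loss, had 76.4 TPM in pup 1 against 186 TPM in pup 3. Stt3a, the catalytic subunit that glycosylates chains as they enter, had 34.1 TPM in pup 1 against 72.3 TPM in pup 3. Ddost had 70.6 TPM in pup 1 against 88.1 TPM in pup 3, the smallest difference of the 6. Of the 6, 4 were past 2-fold (3 with TMM or DESeq2 factors, 5 with spike-in totals), and all 6 were on the pup 3 side under each of these scalings. Over all genes, 33.1% were past 2-fold on the pup 3 side. The 6 remaining subunits did not share this direction throughout. All 6 were detected in both pups, but Krtcap2 had 139.5 TPM in pup 1 against 87.6 TPM in pup 3, Tmem258 had 129.9 TPM and 126 TPM, and Ostc had 129 and 191 TPM. Stt3b, the alternative catalytic subunit that acts on sites that were missed, had 3.87 TPM in pup 1 against 38.5 TPM in pup 3, below Stt3a in both pups.

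The soluble chaperones were led by Hspa5 (BiP, the ER's Hsp70, chromosome 2, 34771970 to 34777547 in GRCm38), which had 567 TPM in pup 1 against 689 TPM in pup 3, or 628 ± 86.3 TPM. It ranked 196th of all genes in pup 1 and 174th in pup 3. Hsp90b1 (GRP94, the ER's Hsp90) had 194 TPM in pup 1 against 266 TPM in pup 3. Dnajc3, a J-domain cofactor of BiP, had 38.8 TPM in pup 1 against 39.4 TPM in pup 3 and as scaled here its log2 ratio, -0.02, was the closest to 0 of the members. The other 3 members of the group, Hyou1, Dnajb11 and Sdf2l1, had at most 1 count in pup 3. Hyou1, which exchanges the nucleotide of BiP, had 3721 expected counts (21.8 TPM) in pup 1 and 1 count in pup 3, a ratio by CPM of 2362 with a 95% counting interval of 424 to 93308. Dnajb11, a J protein that delivers unfolded chains to BiP, had 5415 counts (75.1 TPM) in pup 1 and 0 counts in pup 3. By CPM that is at least 1146-fold higher in pup 1, a bound on reads that covers counting error only. Sdf2l1, which binds Dnajb11, had 33 counts (0.782 TPM) in pup 1 and 0 counts in pup 3, at least 6.98-fold higher in pup 1 on the same terms. The group's summed TPM was close in the pups all the same, 898 in pup 1 and 995 in pup 3, with Hspa5 and Hsp90b1 supplying most of it.

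The lectin chaperones calreticulin and calnexin, which hold glycoproteins by their trimmed glycans, differed in how close the pups were. Calr, the soluble form, had 204 TPM in pup 1 against 269 TPM in pup 3. Canx, the membrane form, had 125 TPM in pup 1 against 22.3 TPM in pup 3, a log2 ratio of 2.43. Calr was above Canx in both pups. Of 9 listed enzymes that trim and check those glycans, 2 were detected in both pups, 3 in pup 1 alone and 4 in neither, with a summed level of 90.6 TPM in pup 1 against 53.0 TPM in pup 3. Prkcsh, the noncatalytic subunit of glucosidase II, had 4025 counts in pup 1 and 0 in pup 3, and the folding sensor Uggt1 had 8.04 and 25.8 TPM.

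The disulfide isomerases were the highest group by summed TPM, 1109 TPM in pup 1 against 1154 TPM in pup 3, and the share they held was among the steadiest, 0.113 ± 0.00321%. P4hb (protein disulfide isomerase itself, which also serves prolyl 4-hydroxylase and the lipoprotein-loading protein MTP; chromosome 11, 120560298 to 120573253) had 523 TPM in pup 1 against 755 TPM in pup 3, and with 639 ± 164 TPM was the member of highest mean. Pdia6 had 292 TPM in pup 1 against 221 TPM in pup 3. Pdia3 (ERp57, the partner of both lectin chaperones) had 168 TPM in pup 1 against 80.8 TPM in pup 3, and Pdia4 had 126 and 97.5 TPM. P4hb was thus lower in pup 1 while the other 3 were higher there, and the sums came out alike. Pdia3 alone of the 4 was past 2-fold, at a log2 ratio of 1.05, and its ratio by CPM was 1.95. Ppib (cyclophilin B, a prolyl isomerase; chromosome 9, 66060222 to 66066623) had 424 TPM in pup 1 against 624 TPM in pup 3. The 3 members above a mean of 300 TPM, namely P4hb, Hspa5 and Ppib, all lay within 2-fold, where 22.8% of all genes at 300 to 1000 TPM did not.

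Many of these folding genes are known targets of the unfolded protein response, whose factors ATF6 and XBP1 bind the ER stress element, a CCAAT box and a CCACG box set 9 bases apart. RefSeq promoter windows (250 bases before to 50 after the start, GRCm38.p6) were given for 37 of the 45 members, and those of Sec61a1, Ssr2, Srp68, Spcs3, Sec11c, Hyou1, Tmed2 and Lman1 were not. The full element (CCAAT, 9 bases of any kind, then CCACG), on either strand, was in the windows of 6 of the 37 members (16.2%) and of 37 of 27025 genes with a window (0.137%). The members were chosen for known roles and include known targets of this response, so these shares are a description and no test. All 6 members with the full element are folding factors: Hspa5, Hsp90b1, Dnajc3, Calr, Canx and Pdia6. Their stretches, 5′ to 3′ on the strand of the gene with 20 bases on each side, are shown because they hold the element; capitals mark the fixed letters of the CCAAT and CCACG boxes, which read CGTGG and ATTGG where the element lies on the other strand.
Hspa5 (chr2:34772005-34772063, plus strand): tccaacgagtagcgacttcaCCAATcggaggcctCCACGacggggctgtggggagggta
Hsp90b1 (chr10:86705513-86705676, minus strand): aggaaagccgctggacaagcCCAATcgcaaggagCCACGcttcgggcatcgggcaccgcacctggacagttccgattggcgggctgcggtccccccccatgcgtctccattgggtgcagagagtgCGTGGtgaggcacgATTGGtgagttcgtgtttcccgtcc
Dnajc3 (chr14:118937807-118937865, plus strand): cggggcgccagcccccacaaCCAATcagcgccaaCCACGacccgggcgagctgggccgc
Calr (chr8:84847055-84847113, minus strand): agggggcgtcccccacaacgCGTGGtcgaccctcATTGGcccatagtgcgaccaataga
Canx (chr11:50325780-50325838, minus strand): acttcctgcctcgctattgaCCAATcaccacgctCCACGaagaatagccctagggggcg
Pdia6 (chr12:17266471-17266529, plus strand): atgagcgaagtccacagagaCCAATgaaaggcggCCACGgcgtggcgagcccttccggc

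The element began 65 bases before the RefSeq start in Hspa5, 98 in Pdia6, 105 in Dnajc3 and 145 in Canx. Calr held it on the other strand at 162 bases. Hsp90b1 held 2 elements in opposite orientation, at 212 and 107 bases, and the printed stretch spans both. The GENCODE start of Hspa5 (34771970) comes before its printed stretch, so its element is upstream of the RefSeq start only. For 29 of 39 member windows the first bases after the RefSeq start were found in a GENCODE transcript of the gene. Those of Pdia6 and Dnajc3 were not. In both pups all 6 genes with the element were detected. Their median was 199 TPM in pup 1 against 243 TPM in pup 3, against 70.6 and 72.3 TPM for the 31 members whose windows did not hold these letters. Of the 6, 5 lay within 2-fold between the pups, Canx being the exception, and of the 31, 26 were detected in both pups and 18 lay within 2-fold. Over all genes 67.6% were past 2-fold, and 46.3% of those detected in either pup were in both. The share past 2-fold was 88.6% at a mean of 10 to 30 TPM and 22.8% at 300 to 1000 TPM. The sets with and without the element were not matched for level, and a tie of steadiness to the element was not tested. The boxes alone were commoner: CCAAT, on either strand, was in 27 of the 37 member windows (73.0%) against 41.1% of all genes, and CCACG in 26 (70.3%) against 35.5%. Every full element also counts as a match of each box. Among 125 other ER machinery genes with a window, 3 held the full element (Creld2, Syvn1 and Derl3), and among 28 cargo genes none did. Levels of those 3 differed widely: Creld2 had 69.1 TPM in pup 1 against 75.2 TPM in pup 3, Syvn1 had 27.2 and 17.3 TPM, and Derl3 had 0 counts in both. A match of letters is a description of the window and shows neither binding nor use.

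**Figure D4:**
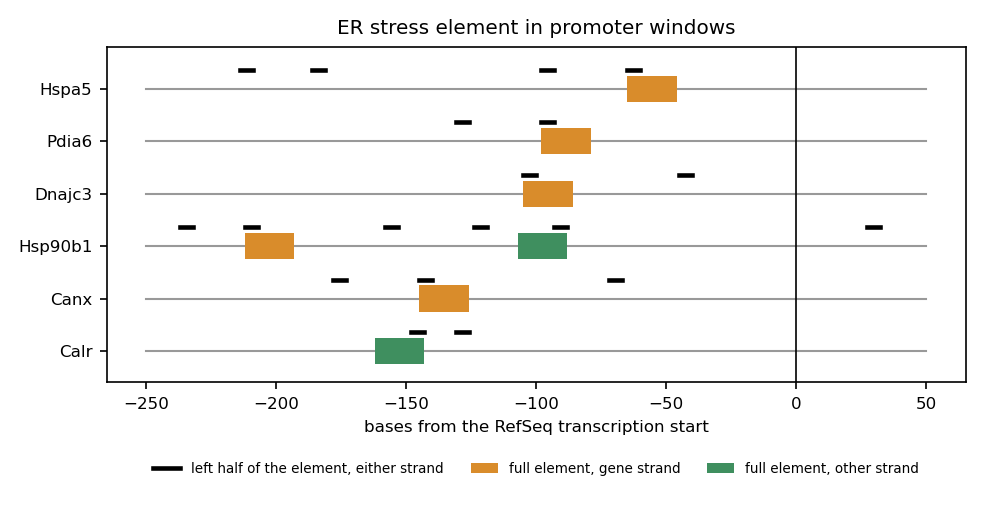
Position of the full ER stress element in the promoter windows of the 6 members that hold it, in bases from the RefSeq start (vertical line at 0), with colour for its orientation and black marks for matches of its left box alone. The element nearest the start is that of Hspa5, 65 bases upstream, and Hsp90b1 has 2.

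Among the regulators of that response, Xbp1 had 104.9 TPM in pup 1 against 40.7 TPM in pup 3, Creb3l3 (a liver-enriched membrane-bound factor) had 178 and 169.7 TPM, and Atf4 had 34.4 and 71.4 TPM. Of the 16 listed, 5 were detected in both pups, and 6 had 0 counts in both (Atf6, Atf6b, Ern1, Eif2ak3, Ddit3 and Chac1). Reads of the sensors ATF6, IRE1 (Ern1) and PERK (Eif2ak3) thus lay below the floor of 0.0547 CPM in pup 1 and 0.0862 CPM in pup 3. Transcripts under that floor were not detectable. The floor covers counting error only, so it sets no limit on transcripts lost before sequencing. Asns, an amino acid response target, had 11652 counts in pup 1 and 1 in pup 3, and Ppp1r15a, which restores translation, had 262 and 106 TPM. In ER-associated degradation 12 of 17 listed genes were detected in both pups and the sums were close, 1207 TPM in pup 1 against 1211 TPM in pup 3. Herpud1, a stress-induced member of that pathway, had 542 TPM in pup 1 against 619 TPM in pup 3, levels near those of Hspa5.

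The exit factors held the member with most counts in pup 1 among those nearly absent from pup 3. Tmed2 (chromosome 5, 124540695 to 124550506), a p24 cargo adaptor, had 248 TPM from 19284 expected counts in pup 1 and 1 count in pup 3, a ratio by CPM of 12239 with a counting interval of 2196 to 483439. Its processed pseudogene Gm10698, identical over 604 nt, had 1271 counts in pup 1 and 1 count in pup 3. Tmed10, the p24 protein that pairs with it, had 43.5 TPM in pup 1 against 30.5 TPM in pup 3. The partners thus stood at like levels in neither pup. Sec23b, of the inner COPII coat, had 57.5 TPM (4255 counts) in pup 1 and 0 counts in pup 3. By CPM that is at least 900.2-fold higher in pup 1, with counting error only. Sec24d, which with Sec23 proteins selects cargo, had 28.4 TPM in pup 1 against 31.6 TPM in pup 3, and the GTPase Sar1b, needed for lipoprotein export, had 82.1 and 47.4 TPM. Of these 3 coat genes, Sec24d was the closest between the pups.

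The cargo receptors Lman1 and Surf4 were higher in pup 3. Lman1, a lectin that exports clotting factors V and VIII, had 43.9 TPM in pup 1 against 269 TPM in pup 3, a log2 ratio of -2.59. Mcfd2, its obligate partner, was outside the members and had 48.5 TPM in pup 1 against 251 TPM in pup 3, so the gene totals of the pair were near equal within each pup, although part of Lman1's total in pup 3 is a transcript not annotated as coding. Surf4, a receptor for lipoproteins and other secreted proteins, had 107 TPM in pup 1 against 196 TPM in pup 3. Its exons overlap Surf2 on the opposite strand, and Surf2 had 12.8 expected counts in pup 1 against 1691 in pup 3. Reads in the shared 144 nt cannot be told apart where strand was not used. As a group the 7 exit members summed to 611 TPM in pup 1 against 575 TPM in pup 3, 5 of them in both pups. Among 35 further exit genes 19 were in both pups, led by the outer-coat subunit Sec13 with 294 and 372 TPM, and in the COPI retrieval list, whose coat returns ER proteins from the Golgi, 9 of 11 were, led by Arf1 with 297 and 391 TPM.

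Over the 158 further ER genes of 12 lists, 78 were detected in both pups, 24 in pup 1 alone, 17 in pup 3 alone and 39 in neither, with median levels of 17.2 TPM in pup 1 against 17.1 TPM in pup 3. The 45 members were thus more abundant than these lists, with 37 in both pups and 1 in neither. Among all genes detected in either pup, 46.3% were in both, 28.5% in pup 1 alone and 25.2% in pup 3 alone. Genes with many counts in 1 pup and 0 in the other were found in these lists too, and their share over all genes was not computed. Genes with at least 1000 counts in pup 1 and 0 in pup 3 included Txndc12, Fkbp11, Ero1l, Sec22b, Bet1 and Ube2g2, and the opposite was seen for Sec16b, Pdia5, Dnajc10, Rcn1 and P4ha1. Among the folding enzymes outside the members, Prdx4, which oxidizes PDI, had 52.3 TPM in pup 1 against 238 TPM in pup 3, Erp44, which retrieves escaped enzymes, had 20.4 and 129 TPM, and the stress-secreted factor Manf had 156 and 91.8 TPM. The EMC insertase held 456 TPM in pup 1 against 470.4 TPM in pup 3, with 7 of 10 subunits in both.

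The transcript tables gave the isoforms behind these levels, as the percent of each gene's TPM. Among the 35 members that reached 100 expected counts in both pups, 10 had 1 listed transcript and 25 had several. The same transcript led in both pups for 16 of the 25, with over 50% in each pup for all 16 and over 90% for 9. Protein-coding transcripts led Hspa5 (Hspa5-202, 85.3% in pup 1 and 77.4% in pup 3), Calr (Calr-201, 92.1% and 75.1%) and P4hb (P4hb-201, 71.7% and 61.9%). In 9 members the leading transcript differed: Sec61g, Ssr4, Srp9, Srp72, Sec11c, Rpn2, Stt3a, Canx and Lman1. In Canx, Canx-201 led with 84.7% in pup 1 and had 0% in pup 3, where Canx-205 held all reads, and both are annotated as coding. In Srp9, Srp9-201 (1367 nt) had 99.5% in pup 1 and 15.8% in pup 3, and Srp9-202 (823 nt) had 84.2% in pup 3. These pairs exchange 1 coding transcript for another.

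Other exchanges involved transcripts annotated as noncoding. For Srp72 the retained-intron transcript Srp72-207 (764 nt) led with 66.6% in pup 1, while the coding Srp72-201 (3625 nt) had 0.90% there and 94.8% in pup 3. For Sec11c, Sec11c-203, annotated as a target of nonsense-mediated decay, had 71.5% in pup 1, and the coding Sec11c-201 had 2.26% in pup 1 and 99.2% in pup 3. Coding transcripts of the signal peptidase's catalytic subunits were therefore near the limit in pup 1, with 20.6 expected counts for Sec11c-201 and 0 for Sec11a. In Sec61g, a pair of retained-intron transcripts had 44.0% and 43.9% in pup 1, and the coding Sec61g-201 had 0% in pup 1 and 87.9% in pup 3. In Lman1 the short processed transcript Lman1-205 (710 nt) had 1.57% in pup 1 and 60.0% in pup 3, so that its TPM gap between the pups (43.9 and 269) is wider than its gap in CPM (94.3 and 327). Sec62, below 100 counts in pup 1, was led in both pups by the retained-intron transcript Sec62-202, with 96.3% in pup 1 and 91.6% in pup 3. Both pups thus hold part of these genes' reads in forms not annotated as coding. Effective lengths follow these choices, so a TPM difference can come from reads, from the transcript to which they were given, or from both.

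**Figure D5:**
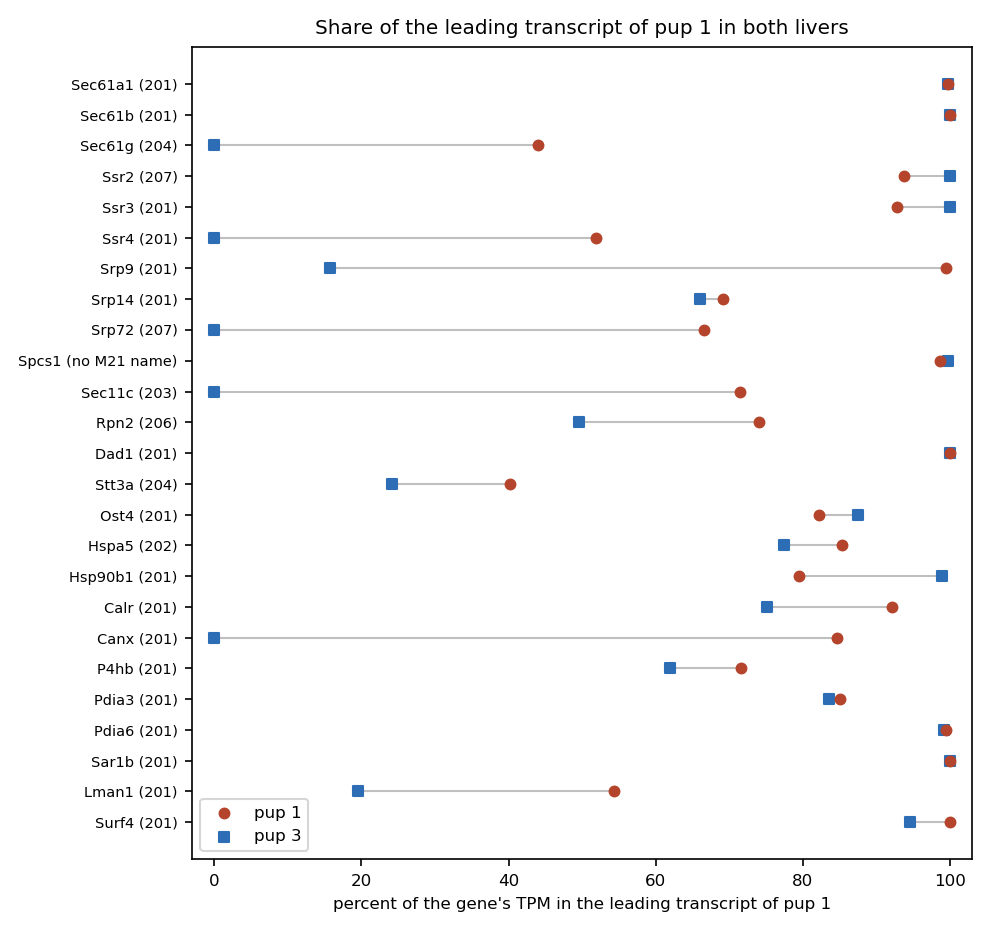
Percent of each gene's TPM given to the transcript that leads in pup 1 (named in brackets by its suffix), in pup 1 (circles) and in pup 3 (squares), for the 25 members that have several transcripts and reached 100 expected counts in both pups. For 16 genes both symbols lie above 50%, and for Srp72, Canx, Sec61g, Sec11c and Ssr4 the pup 3 symbol lies at 0.

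Reads of 8 members can be shared with a near-identical sequence elsewhere (at least 95% identity over 200 nt or more), and for 5 of them the copies held over 10% of the summed counts of member and copies in at least 1 pup. Besides Sec61g, Srp54a and Srp9, these were Ssr2, which shares a stretch of 366 nt with Rtraf, a gene of its own, and Tmed2, whose pseudogene had 1 of 2 counts in pup 3. Adding such copies to their members (Rtraf left out) moved the translocon from 0.0375% of TPM to 0.0743% and the signal recognition particle from 0.0197% to 0.0303%. Exons of 16 members overlap another annotated gene, for 15 of them on the opposite strand. In most of these the other gene had few or no counts, and besides Surf4 the largest partners were Hsp90b1's Gm15344, with 366 counts in pup 1 and 0 in pup 3 beside 22738 and 20691 for Hsp90b1, and Gm25745, with 15.6 and 144 counts.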

How the data were processed

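Liver RNA labelled as from 2 newborn pups was sequenced by a SmartSeq protocol, per the labels' protocols, and the authors deposited 1 gene table and 1 transcript table per library. Per the deposited notes, values refer to mm10 with GENCODE M4 genes. Neither aligner nor quantification program nor strand setting is given in the sources used here. The authors deposited expected counts, estimated reads per gene that can be fractional. TPM, as deposited, includes spike-ins in its total. FPKM, also deposited, differs from TPM by 1 factor per library. The deposited posterior mean of TPM was treated as a score, and the deposited isoform percent is a transcript's share of its gene's TPM. No molecular identifiers were used, so intervals and floors cover counting error only.

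Spike-ins were removed and TPM rescaled to the same total. Detection means 1 TPM or more. Ratios are pup 1 over pup 3 on log2(TPM + 1), a scale that shrinks differences between low values, over genes with a mean of 10 or more expected counts. A call means 2-fold or more, with no p-value. The ratio procedure was tested on simulated counts with counting error only and 2-fold changes set in some genes. That checks the arithmetic and does not cover the wider spread between these libraries. Names and positions are those of GENCODE M21 (GRCm38, the assembly of mm10), where 42462 of 43346 gene identifiers (98.0%) matched. Copies were sought with BLAST 2.17.0 among M21 transcripts. Every member is named, and of each further list up to 3 genes of highest mean TPM and genes with 1000 or more counts against 0 could be named. Stt3b, Xbp1, Atf4, Creld2, Syvn1, Derl3, the 6 regulators at 0 counts, and the overlapping or near-identical genes are not covered by it and were picked with their values in view. Of 270 list symbols 1 was unmatched. The members and lists were chosen with earlier results of these data known. Scaling factors were computed on rounded expected counts with edgeR 4.0.16 and DESeq2 1.42.0 in R 4.3.3, and the rest in Python 3.11.15 with pandas 2.3.3.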

Additional observations from a re-analysis of the deposited data

How the results depend on the processing

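The members' share of 0.575% of TPM became 0.831% of expected counts and 0.708% with globin and mitochondrially encoded genes left out of the total. By expected counts, the chaperones held 0.182%, the lectin chaperones 0.0566%, the disulfide isomerases 0.185%, the prolyl isomerase 0.0360% and the exit factors 0.105%. Without globin and mitochondrially encoded genes, which makes the total smaller, the translocon held 0.0460%, the signal recognition particle 0.0243%, the chaperones 0.116%, the lectin chaperones 0.0381%, the disulfide isomerases 0.139% and the exit factors 0.0729%. The disulfide isomerases and the exit factors held 0.106% and 0.0557% with spike-ins kept, and 0.121% and 0.0634% of protein-coding TPM. With near-identical copies added, an alternative chosen after seeing the data, the translocon held 0.0743%, the signal recognition particle 0.0303% and the exit factors 0.0623%. Without Srp54a the signal recognition particle held 0.0153%. Either library alone gave a total share of 0.533% to 0.618% and 39 to 42 detected members.

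The number of members past 2-fold was 20 to 23 under each alternative but a minimum of 100 expected counts in both libraries. There it was 13 of 35, beside 42.9% of all genes, since genes under 100 counts in either library are then not tested. Detection in both pups covered 34 to 38 members at other thresholds. By CPM, an alternative also partly added after seeing the data, Pdia3 lost the 2-fold call and Rpn1 and Srp72 gained it. Protein sequences were not analysed here, so the planned look at protein ends was not run. No paired analysis was possible because both libraries belong to 1 group. Low counts limit Sec62, Sec63, Srp68 and Sdf2l1.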
